A study of Homo sapiens with 6 samples.

Results

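The RAB small GTPases are the genes described here. The deposited table of gene counts holds 64 rows whose Ensembl identifier carries a symbol made of RAB, a number and at most 1 letter. Of these, 63 are annotated as protein coding and are the members, out of 63186 identifiers in all; the remaining row is the pseudogene RAB1C. Counts were obtained from 6 libraries of the established human cell line RBE, which derives from an intrahepatic cholangiocarcinoma (a tumour of the small bile ducts inside the liver). In 3 libraries (si-CHAF1A) the cells had received siRNA against CHAF1A, the large subunit of chromatin assembly factor 1, which places histones on newly replicated DNA. In the other 3 (si-Ctrl) they had received a control siRNA. Both groups were transfected with the same lipid reagent at about 60% confluency, had their medium changed after 24 h and were harvested at 48 h. RBE is a single cell line, and the labels give neither the siRNA sequences nor their number. The knockdown was transient and left part of the CHAF1A transcript, which stood at 11.1, 12.9 and 11.2 CPM in si-CHAF1A 1, 2 and 3, against 51.5, 59.8 and 51.0 CPM in si-Ctrl 1, 2 and 3. It fell 4.61-fold (log2 fold change -2.21 with an SE of 0.10, edgeR adjusted p = 2.57e-10). CPM are counts scaled to a common library size, computed here with scaling factors of the TMM method.

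Rab proteins are switches that mark membranes. Bound to GTP, a Rab recruits effectors such as tethers, motors and sorting factors to the vesicle or organelle it sits on, and after GTP hydrolysis a carrier protein takes it back into the cytosol. Different Rabs mark different compartments, so that the family as a whole covers the routes of secretion, endocytosis and recycling. In an epithelial cell of the bile duct these routes deliver proteins to the apical and basolateral surfaces. The members were placed in lists by the compartment they are best known for: 14 act at the endoplasmic reticulum (ER) and Golgi, 12 in exocytosis, 17 in endosomes and lysosomes and 9 in recycling. A further 11 have other or less settled roles, among them RAB6D, which was added to this last list once the table had been read.

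The libraries held between 15643381 and 20918997 counts. Of the variance in log2 CPM, 65.1% lay on a first component that separated the groups. si-Ctrl 2 stood apart from its group, with a score of -29.6 on the second component (11.2%) against 14.9 and 13.9 for si-Ctrl 1 and si-Ctrl 3. Members whose call changes without it are therefore given in both forms. Of 8 bile duct markers, all were detected in every library, with a summed level of 5360 to 5882 CPM in si-CHAF1A and 4154 to 4817 CPM in si-Ctrl; 5 rose and 2 fell. Of 7 hepatocyte markers, 6 were under 1 CPM in every library, ALB among them; the 7 together summed to 30.5 to 53.1 CPM in si-CHAF1A and 16.4 to 25.7 CPM in si-Ctrl. All 5 leukocyte markers were under 1 CPM in every library, with sums of 0.561 to 0.689 CPM in si-CHAF1A and 1.02 to 1.16 CPM in si-Ctrl. Endothelial markers (4, of which 2 were under 1 CPM throughout) summed to 6.60 to 8.86 CPM in si-CHAF1A and 2.41 to 3.77 CPM in si-Ctrl. Fibroblast and stellate markers (6) summed to 31.6 to 50.2 CPM in si-CHAF1A and 14.6 to 18.6 CPM in si-Ctrl. COL1A2 was at 5.47 CPM in si-CHAF1A 1 and at most at 0.172 CPM in the other 5 libraries. The part of other cells in the results was not tested, and in bulk RNA a smaller share of cells expressing a gene cannot be told from less RNA of it per cell.

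Promoter sequences are shown for the members that differed by at least 1.5-fold and have an entry in the RefSeq table, RAB30 and RAB6B among the rises and RAB21 and RAB3B among the falls. RAB3D is added because it rose while its paralogue RAB3B fell. Each run is genomic sequence upstream of the annotated start in GRCh38.p14, the assembly also called hg38, written 5′ to 3′ on the gene's strand. RAB30 is chr11:83071924-83072147 on the minus strand, RAB6B chr3:133895848-133896097 on the minus strand and RAB3D chr19:11339658-11339907 on the minus strand. RAB21 is chr12:71754613-71754862 on the plus strand and RAB3B chr1:51990765-51990950 on the minus strand. The stretches of RAB6B, RAB3D and RAB21 have 250 bases. That of RAB30 has 224 and that of RAB3B 186, since the 26 and 64 bases next to the RefSeq start lie inside the GENCODE span and were left out. The RefSeq start of RAB3D lies inside the longer GENCODE span of that gene. Capitals mark matches, on either strand, to short motifs. These are GGGCGG for the box bound by SP1, CCAAT for the box bound by NF-Y, and CACGTG for the E-box at the core of the CLEAR element of lysosomal genes. The others are CCGGAA for the ETS core, TATAAA for the box of TATA-binding protein, TGANTCA for the AP-1 site and TTTGAA for the CHR element. The SP1 motif is called the GC box in what follows.
RAB30: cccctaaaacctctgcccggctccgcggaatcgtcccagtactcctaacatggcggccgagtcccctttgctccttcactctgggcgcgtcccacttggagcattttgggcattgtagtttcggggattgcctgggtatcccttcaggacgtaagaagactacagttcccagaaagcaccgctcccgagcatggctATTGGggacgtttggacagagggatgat
RAB6B: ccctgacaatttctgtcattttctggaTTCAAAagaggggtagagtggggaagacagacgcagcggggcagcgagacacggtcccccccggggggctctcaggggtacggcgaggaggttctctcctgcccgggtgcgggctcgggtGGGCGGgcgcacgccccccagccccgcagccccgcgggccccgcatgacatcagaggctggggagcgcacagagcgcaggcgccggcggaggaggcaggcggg
RAB3D: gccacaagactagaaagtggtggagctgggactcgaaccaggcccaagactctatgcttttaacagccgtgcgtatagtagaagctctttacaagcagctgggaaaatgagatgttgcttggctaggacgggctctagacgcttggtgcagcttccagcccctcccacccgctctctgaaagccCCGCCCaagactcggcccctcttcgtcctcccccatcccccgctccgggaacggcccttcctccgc
RAB21: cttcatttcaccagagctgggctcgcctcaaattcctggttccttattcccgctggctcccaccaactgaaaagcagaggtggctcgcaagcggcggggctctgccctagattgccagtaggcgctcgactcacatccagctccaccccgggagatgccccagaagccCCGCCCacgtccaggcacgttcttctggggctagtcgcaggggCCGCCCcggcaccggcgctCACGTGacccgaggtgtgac
RAB3B: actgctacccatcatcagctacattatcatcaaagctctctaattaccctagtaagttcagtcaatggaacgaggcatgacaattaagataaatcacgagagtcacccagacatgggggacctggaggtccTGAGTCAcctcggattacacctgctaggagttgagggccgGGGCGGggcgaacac

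The printed RAB30 stretch held 1 CCAAT box and no GC box, while that of RAB6B held 1 GC box and 1 CHR element. RAB3D had 1 GC box only. RAB21 had 2 GC boxes and 1 E-box, and RAB3B 1 GC box and 1 AP-1 site. Full windows of 250 bases exist for 50 of the 63 members, taken whether or not the member was tested. Of these members 78% held a GC box, against 42.3% of all 27303 windows and 66.2% of the 11285 windows of tested genes. The ETS core was in 28% of members and 24.3% of tested genes, the CCAAT box in 26% and 34.6%, and the CLEAR E-box in 10% and 8.65%. The CHR element was in 12% of members and 8.20% of tested genes, the TATA box in 8% and 5.43%, and the AP-1 site in 4% and 4.05%. The GC box stood in 4 of the 7 windows of members that rose and in 12 of the 13 windows of members that fell. In the same windows the ETS core was in 1 and 6, the CCAAT box in 2 and 3, and the CHR element in 1 and 3. The CLEAR E-box was in 0 and 2, the TATA box in 1 and 0, and the AP-1 site in 0 and 1. These splits were not tested, and they were not computed over all genes that rose or fell. These are matches of letters in a window and say nothing of which factor binds.

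Of the 63 members, 52 had enough counts to be tested. Those left out had at most 17 counts in any library: RAB3C, RAB4B, RAB6C, RAB19, RAB25, RAB33A, RAB34, RAB39B, RAB41, RAB42 and RAB44. RAB25, the epithelial relative of RAB11A, had 0, 2 and 2 counts in the si-CHAF1A and 1, 2 and 2 counts in the si-Ctrl libraries, so hardly any RNA of it was counted in this bile duct line. RAB34, which acts in cilium formation, had 7, 2 and 1 counts in si-CHAF1A and 1, 2 and 3 counts in si-Ctrl. RAB4B shares 36.8% of its exonic bases with MIA-RAB4B and RAB4B-EGLN2 on its own strand. The annotation release used for counting is not given, so reads of RAB34 or RAB4B may have been lost to overlapping genes in it. RAB6C and RAB6D are near-copies of RAB6A, and reads that map to several copies may have been lost or split, so their counts are uncertain.

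Levels of different genes can be compared per exon length, as CPM per kilobase. By that measure RAB7A, which directs late endosomes to lysosomes, and RAB10, which carries vesicles to the plasma membrane, led the family. RAB7A was at 96.8 ± 2.45 CPM per kilobase in si-CHAF1A and 113 ± 12.3 in si-Ctrl (SD, n = 3 each), and RAB10 at 96.1 ± 1.76 in si-CHAF1A and 98.3 ± 3.22 in si-Ctrl. Their ranges overlapped in si-CHAF1A but not in si-Ctrl cells. RAB1A, needed for ER to Golgi transport, followed at 68.7 ± 1.9 CPM per kilobase in si-CHAF1A and 65.9 ± 2.75 in si-Ctrl. RAB14, which works between Golgi and endosomes, was at 44.9 ± 1.01 CPM per kilobase in si-CHAF1A and 52.8 ± 4.70 in si-Ctrl, and RAB1B at 49.0 ± 2.61 in si-CHAF1A and 50 ± 1.64 in si-Ctrl. The control ranges of RAB14 and RAB1B overlapped, and so did those of each neighbouring pair in the order RAB11B, RAB35, RAB6A, RAB5C, RAB5B and RAB11A, which came after RAB32. RAB28 led the list of other roles with a rank far below these, at 6.52 ± 0.57 CPM per kilobase in si-CHAF1A and 8.20 ± 0.72 in si-Ctrl.

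In si-CHAF1A cells 9 of the 52 tested RAB genes were higher and 16 lower than in si-Ctrl cells (edgeR's quasi-likelihood test, adjusted p under 0.05 over all 15911 genes tested). That is 48.1% of the members, where 37.8% of all tested genes passed; 17.3% of members were higher, against 18.5% of all genes, and 30.8% lower, against 19.3%. The median log2 fold change was -0.09 over the members and 0.00 over all genes. Of the 52 tested members, 5 passed with at least 1.5-fold and 0 with at least 2-fold. Of the 15911 genes tested, 2252 passed with at least 1.5-fold and 899 with at least 2-fold. At an unadjusted p under 0.05, 11 of the 52 members were higher and 18 lower, beside 3611 and 3699 of the 15911 genes. In all 25 called members the groups did not overlap, and the same held for 4 of the 27 not called; 48.2% of all tested genes were separated in that way. The lowest count of a called member in any library was 85, so none was near the limit of the filter. Summed over all members, the level was 3195, 3198 and 3154 CPM in si-CHAF1A 1, 2 and 3, against 3479, 3466 and 3530 CPM in si-Ctrl 1, 2 and 3. The knockdown sum was 91.1% of the control sum.

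**Figure D1:**
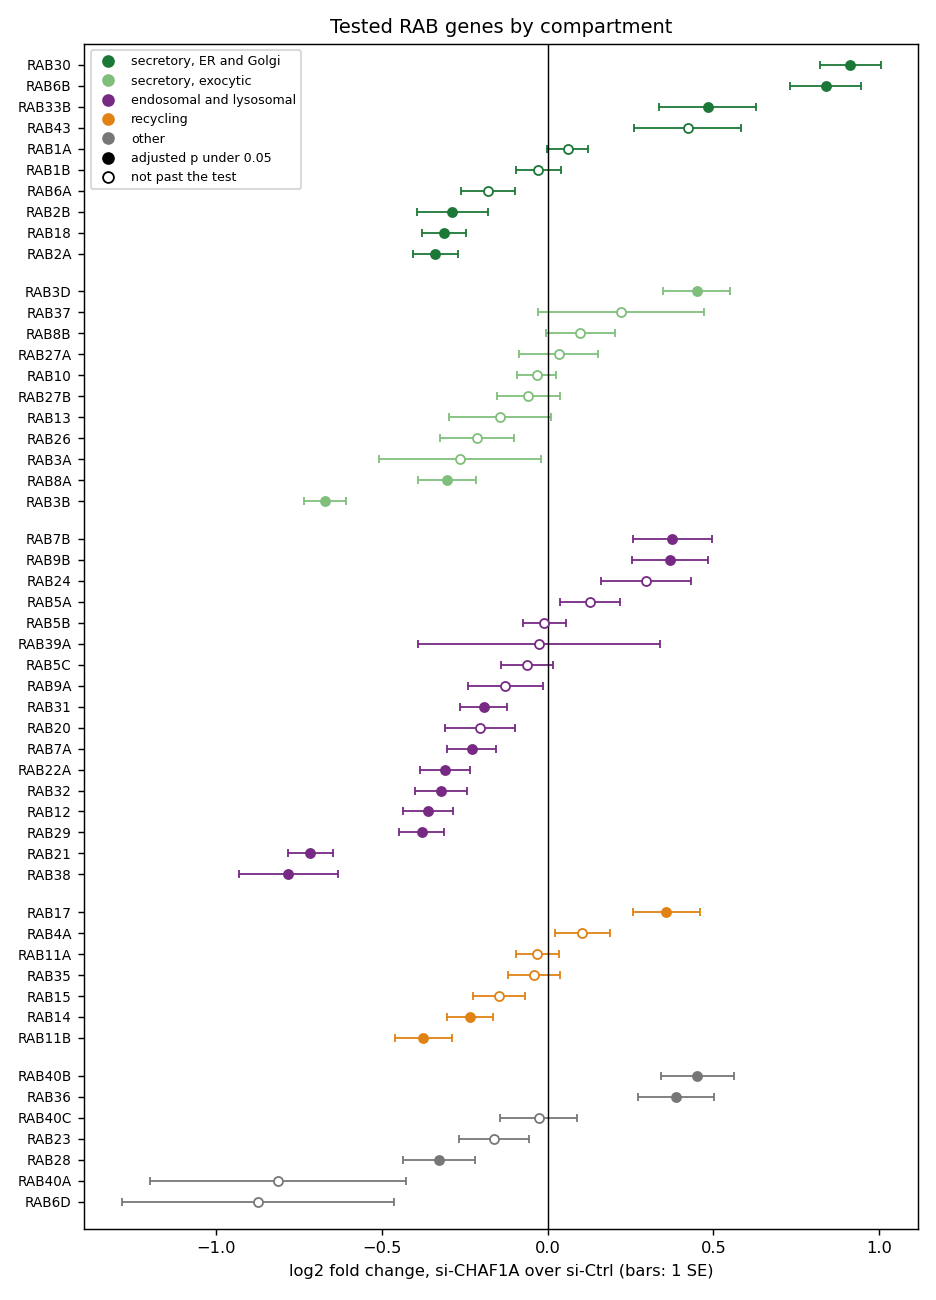
Log2 fold change of si-CHAF1A over si-Ctrl for the 52 tested RAB genes, grouped by compartment; bars are 1 SE of the fit, and filled points passed the test. The 17 endosomal and lysosomal genes hold 8 of the 16 lower members, and RAB30 (0.91) and RAB6B (0.84) stand farthest to the right.

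Of the 25 called members, 11 lost their call in at least 1 fit that left out a library, and 0 changed direction. Calls over all genes moved as well, from 2944 higher and 3064 lower with all 6 libraries. They were 2346 to 2530 higher and 2358 to 2766 lower without 1 library other than si-Ctrl 2. Without si-Ctrl 2, 3519 genes were higher and 3709 lower. Without si-Ctrl 2, 10 members were higher and 19 lower, and 25 of these were the same calls as with all 6 libraries. The additional ones were RAB43 (0.55), RAB6A (-0.29), RAB27B (-0.17) and RAB4B (-1.38), which was not tested with all 6. The sign of the log2 fold change turned without si-Ctrl 2 in 7 tested members, of which 0 were called in either fit. These are RAB13 (0.12), RAB40C (0.09), RAB35 (0.05), RAB39A (0.05), RAB5C (0.02), RAB8B (-0.03) and RAB27A (-0.08), with the values without that library. Without si-Ctrl 1, 5 were higher, and without si-CHAF1A 1, 10 were lower. Of the 25 called members, 14 stayed past the threshold in each of the 6 fits that left out 1 library. These are RAB30, RAB6B, RAB3D and RAB40B, which were higher, and RAB21, RAB3B, RAB38, RAB29, RAB11B, RAB12, RAB2A, RAB32, RAB18 and RAB22A, which were lower.

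Among the ER and Golgi Rabs, 3 of 10 tested were higher and 3 lower (30% each, beside 18.5% and 19.3% of all genes). With 1 library left out, 2 to 4 were higher and 2 to 4 lower. The median log2 fold change over all 6 libraries was 0.02. RAB30 (ENSG00000137502, chromosome 11, 82973133 to 83071923), a Golgi Rab that also takes part in autophagy of bacteria, was at 45.5, 46.1 and 49.1 CPM in si-CHAF1A 1, 2 and 3, against 26.2, 21.9 and 26.8 CPM in si-Ctrl 1, 2 and 3. Each knockdown library was above each control library, and RAB30 rose 1.88-fold (log2 fold change 0.91 with an SE of 0.09, edgeR adjusted p = 1.47e-06). Its stretch of promoter printed above, which lacks the 26 bases next to the RefSeq start, is the one of the 5 without a GC box. RAB6B (ENSG00000154917, chromosome 3, 133824239 to 133895836), the paralogue of RAB6A that is best known from neurons, was at 16.6, 15.6 and 16.9 CPM in si-CHAF1A, against 9.21, 8.79 and 9.46 CPM in si-Ctrl. It rose 1.79-fold, again with no overlap (log2 fold change 0.84 with an SE of 0.11, edgeR adjusted p = 1.82e-05). SRPRB, which overlaps 6.34% of the exonic bases of RAB6B from the opposite strand, fell by 0.32 on the log2 scale.

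RAB6A itself, the general Rab of Golgi to ER retrieval, was at 131, 129 and 127 CPM in si-CHAF1A, against 154, 125 and 160 CPM in si-Ctrl. si-Ctrl 2 lay below all knockdown libraries, so the groups overlapped and the gene did not pass (log2 fold change -0.18, edgeR adjusted p = 0.0988). Without si-Ctrl 2 it fell by 0.29 on the log2 scale (edgeR adjusted p = 1.03e-06). RAB33B, a Golgi Rab that binds the autophagy protein ATG16L1, was at 7.91, 8.15 and 9.70 CPM in si-CHAF1A, against 5.69, 5.76 and 6.996 CPM in si-Ctrl. The groups were separate, and RAB33B rose 1.40-fold (log2 fold change 0.48 with an SE of 0.15, edgeR adjusted p = 0.0164), a call that was lost without si-CHAF1A 3 or si-Ctrl 1 (adjusted p up to 0.0989). RAB43, another Golgi Rab, was just outside the threshold (log2 fold change 0.42, edgeR adjusted p = 0.0504), and 79.3% of its exonic bases are shared with the read-through gene ISY1-RAB43.

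The lower members of this list act at the ER and in early secretion. RAB2A, which works between ER and Golgi, fell by 0.34 on the log2 scale and RAB18, found on ER and lipid droplets, fell by 0.31. RAB2B fell by 0.29, close to the threshold (edgeR adjusted p = 0.0438) and, of the 6 fits that left out a library, past it only without si-Ctrl 2 (adjusted p up to 0.168). RAB1A, in contrast, was at 226, 234 and 222 CPM in si-CHAF1A, against 208, 223 and 224 CPM in si-Ctrl. The ranges overlapped (log2 fold change 0.06 with an SE of 0.06, edgeR adjusted p = 0.482). RAB1B, which shares the role of RAB1A, was at 104, 96.0 and 94.9 CPM in si-CHAF1A, against 102, 103 and 96.6 CPM in si-Ctrl, and overlapped too (log2 fold change -0.03, edgeR adjusted p = 0.782). Both overlap genes of the opposite strand, RAB1A over 22.9% of its exonic bases with CEP68, which rose, and RAB1B over 42.6%.

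Of the exocytic Rabs, 1 of 11 tested was higher and 2 were lower (9.09% and 18.2%, beside 18.5% and 19.3% of all genes). The lower count was 1 without si-CHAF1A 1 or si-CHAF1A 3, and 3 without si-Ctrl 2. The median log2 fold change was -0.06. RAB3B (ENSG00000169213, chromosome 1, 51907956 to 51990764), which acts in regulated secretion, was at 95.9, 100.5 and 93.3 CPM in si-CHAF1A, against 149.7, 158 and 154 CPM in si-Ctrl. It fell 1.59-fold with no overlap (log2 fold change -0.67 with an SE of 0.06, edgeR adjusted p = 9.33e-07). Its paralogue RAB3D (ENSG00000105514, chromosome 19, 11322046 to 11346270), the Rab3 of secretory granules in exocrine cells, was at 26.7, 29.1 and 24.2 CPM in si-CHAF1A, against 19.3, 18.0 and 21.3 CPM in si-Ctrl. RAB3D rose 1.37-fold (log2 fold change 0.45 with an SE of 0.10, edgeR adjusted p = 0.00243), so these 2 Rab3 genes moved in opposite directions. Of the exonic bases of RAB3D, 23.8% lie under genes of the opposite strand, among them CCDC159, which was far lower in level (2.40 CPM in si-CHAF1A and 1.40 CPM in si-Ctrl) and also rose. RAB3A, the Rab3 of synaptic vesicles, was at 2.08, 2.93 and 1.96 CPM in si-CHAF1A, against 2.43, 3.44 and 2.47 CPM in si-Ctrl, and its groups overlapped.

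RAB8A, which brings vesicles from the Golgi to the plasma membrane and the cilium, fell by 0.30 on the log2 scale (edgeR adjusted p = 0.0118). Its call was lost without si-CHAF1A 1 or si-CHAF1A 3 (adjusted p up to 0.0688), and 37.8% of its exonic bases lie under a gene of the opposite strand. RAB8B did not pass, at a log2 fold change of 0.10 with all libraries and -0.03 without si-Ctrl 2. RAB10, the Rab with the most counts per kilobase in this list, was at 352, 353 and 341 CPM in si-CHAF1A, against 369, 346 and 357 CPM in si-Ctrl. The groups overlapped (log2 fold change -0.03 with an SE of 0.06, edgeR adjusted p = 0.692). RAB27A and RAB27B, which dock granules and exosome-bearing endosomes at the plasma membrane, had log2 fold changes of 0.03 and -0.06 and did not pass. Without si-Ctrl 2, RAB27B fell by 0.17 on the log2 scale (edgeR adjusted p = 0.0116). RAB26 (-0.21) and RAB37 (0.22) did not pass either. RAB13, at 15.04, 14.99 and 14.4 CPM in si-CHAF1A, against 13.8, 21.7 and 13.4 CPM in si-Ctrl, did not pass, and its log2 fold change was -0.14 with all libraries and 0.12 without si-Ctrl 2.

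**Figure D2:**
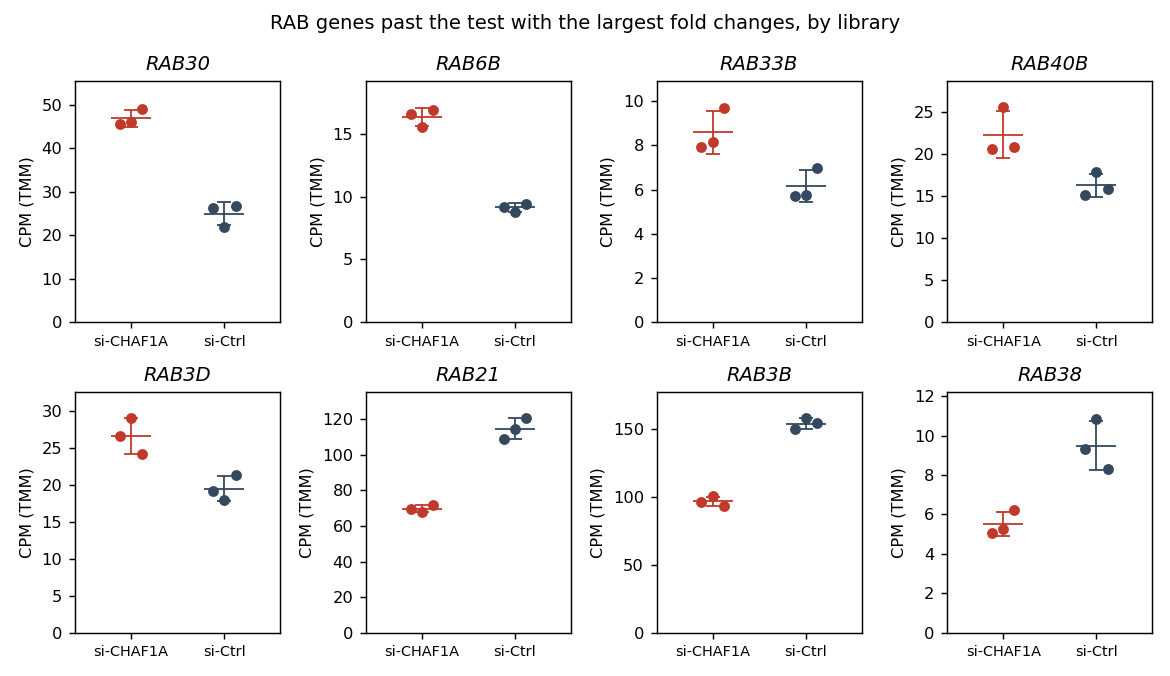
CPM of the 8 called RAB genes with an absolute log2 fold change of at least 0.4, by library; points are libraries, and the horizontal mark and bar are the mean and SD of 3. In each panel every si-CHAF1A point lies on one side of every si-Ctrl point, for example 45.5 to 49.1 CPM against 21.9 to 26.8 CPM for RAB30.

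Endosomal and lysosomal Rabs were lower in 8 and higher in 2 of 17, all of them tested, with a median log2 fold change of -0.19. These are 47.1% and 11.8%, beside 19.3% and 18.5% of all genes. All of the 8 lower ones except RAB38 were above the members' median level of 5.06 on the log2 CPM scale. Of the 5717 tested genes above that level, 1747 were lower. Leaving out 1 library gave 6 to 8 lower and 0 to 2 higher (0 without si-CHAF1A 1, si-CHAF1A 2 or si-Ctrl 3, and 1 without si-CHAF1A 3 or si-Ctrl 1). The sum of this list was 988, 979.95 and 990.4 CPM in si-CHAF1A, against 1102, 1161 and 1149.8 CPM in si-Ctrl. RAB21 (ENSG00000080371, chromosome 12, 71754874 to 71800285), an early endosomal Rab that traffics integrins, was at 69.7, 67.5 and 71.8 CPM in si-CHAF1A, against 109, 114 and 120 CPM in si-Ctrl. It fell 1.64-fold (log2 fold change -0.72 with an SE of 0.07, edgeR adjusted p = 8.42e-07), and its promoter is the one of the 5 printed that carries the CLEAR E-box. RAB38 (ENSG00000123892, chromosome 11, 88113242 to 88175467), known for building lysosome-related organelles such as melanosomes, was at 5.05, 5.28 and 6.23 CPM in si-CHAF1A, against 9.34, 10.8 and 8.32 CPM in si-Ctrl. It fell 1.72-fold (log2 fold change -0.78 with an SE of 0.15, edgeR adjusted p = 0.000659). RAB32, which shares this role, fell by 0.32.

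RAB29, which recruits the kinase LRRK2 to membranes, fell by 0.38 on the log2 scale. RAB12, itself a substrate of that kinase, fell by 0.36. RAB22A, which sorts cargo from early endosomes, fell by 0.31. These 3, with RAB32, passed in each fit that left out a library. RAB7A was at 264, 269 and 256 CPM in si-CHAF1A, against 284, 346 and 295 CPM in si-Ctrl. The groups were separate, with si-Ctrl 2 the highest, and RAB7A fell by 0.23 on the log2 scale (standard error 0.07, edgeR adjusted p = 0.0225). The call was lost without any one of the 3 si-CHAF1A libraries (adjusted p up to 0.107) and held without each control library; without si-Ctrl 2 the log2 fold change was -0.14 (edgeR adjusted p = 0.00353). RAB31, a relative of RAB22A, fell by 0.19 and, of the 6 fits, passed only in the one without si-Ctrl 2 (adjusted p up to 0.211).

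The 2 rises in this list were in minor paralogues. RAB7B, which moves cargo from endosomes to the trans-Golgi network, was at 11.7, 11.1 and 10.3 CPM in si-CHAF1A, against 8.44, 8.99 and 8.09 CPM in si-Ctrl, and rose 1.30-fold (log2 fold change 0.38 with an SE of 0.12, edgeR adjusted p = 0.0213). RAB9B, the paralogue of the late endosomal retrieval Rab RAB9A, was at 11.3, 11.6 and 11.2 CPM in si-CHAF1A, against 9.28, 8.44 and 8.72 CPM in si-Ctrl, and rose by 0.37 on the same scale (edgeR adjusted p = 0.0188). Both had separate groups, and both passed in 2 of the 6 fits that left out a library. RAB7B lost its call without si-CHAF1A 1, si-CHAF1A 2, si-Ctrl 1 or si-Ctrl 3 (adjusted p up to 0.0890), and RAB9B without any si-CHAF1A library or si-Ctrl 3 (up to 0.0596). The Rab5 genes, which define early endosomes, did not pass: the log2 fold changes were 0.13 for RAB5A (0.01 without si-Ctrl 2), -0.01 for RAB5B and -0.06 for RAB5C. RAB9A (-0.13), RAB20 (-0.20), RAB24 (0.30) and RAB39A (-0.03) did not pass either, and RAB24 shares 44.8% of its exonic bases with MXD3.

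Recycling Rabs were higher in 1 and lower in 2 of 7 tested, with a median log2 fold change of -0.04. The shares are 14.3% and 28.6%, against 18.5% and 19.3% over all genes. Without si-CHAF1A 1 or si-Ctrl 1, 0 were higher and 1 was lower, and without si-Ctrl 3, 1 was lower. Without si-Ctrl 2, 3 were lower, RAB4B being the third. RAB11B, a recycling Rab close to RAB11A, was at 73.7, 62.5 and 68.5 CPM in si-CHAF1A, against 80.4, 99.5 and 85.2 CPM in si-Ctrl. si-Ctrl 2 was the highest, each control library lay above each knockdown library, and RAB11B fell by 0.37 on the log2 scale (standard error 0.09, edgeR adjusted p = 0.00298). The antisense gene RAB11B-AS1 covers 12.4% of its exonic bases and rose, at 2.94 CPM in si-CHAF1A and 1.23 CPM in si-Ctrl. RAB11A, the main marker of recycling endosomes, was at 152, 142 and 150.4 CPM in si-CHAF1A, against 152, 145 and 158 CPM in si-Ctrl, and the groups overlapped (log2 fold change -0.03, edgeR adjusted p = 0.743). RAB14 was at 189, 198 and 192 CPM in si-CHAF1A, against 238, 204 and 239.9 CPM in si-Ctrl. It fell by 0.23 on the log2 scale (edgeR adjusted p = 0.0158), a call lost without si-CHAF1A 1, si-CHAF1A 3, si-Ctrl 1 or si-Ctrl 3 (adjusted p up to 0.0743). RAB17, an epithelial Rab of apical recycling, was at 30.02, 25.9 and 28.5 CPM in si-CHAF1A, against 19.8, 24.6 and 21.3 CPM in si-Ctrl. It rose by 0.36 (edgeR adjusted p = 0.0109), and its call was lost without si-CHAF1A 1 or si-Ctrl 1 (up to 0.0638). RAB4A (0.10) and RAB35 (-0.04), both of fast recycling, and RAB15 (-0.15) did not pass.

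Of the Rabs with other roles, 2 of 7 tested were higher and 1 lower, with a median log2 fold change of -0.16. That is 28.6% and 14.3%, where all genes had 18.5% and 19.3%. The higher count was 1 without si-CHAF1A 3 or si-Ctrl 1, and the lower count was 0 without si-CHAF1A 1, si-CHAF1A 3, si-Ctrl 1 or si-Ctrl 3. RAB40B, which belongs to a Rab group that serves as substrate receptors of a ubiquitin ligase, was at 20.6, 25.6 and 20.8 CPM in si-CHAF1A, against 15.2, 17.8 and 15.9 CPM in si-Ctrl. It rose 1.37-fold with no overlap (log2 fold change 0.45 with an SE of 0.11, edgeR adjusted p = 0.00430). Its paralogue RAB40C was at 27.8, 24.98 and 25.6 CPM in si-CHAF1A, against 27.8, 30.8 and 21.3 CPM in si-Ctrl, and did not pass. RAB40A was at 0.416, 0.747 and 0.561 CPM in si-CHAF1A, against 0.768, 1.01 and 1.26 CPM in si-Ctrl, with a log2 fold change of -0.81 (SE 0.39) that did not pass. RAB6D was at 0.535, 0.574 and 0.280 CPM in si-CHAF1A, against 0.832, 0.808 and 0.918 CPM in si-Ctrl, and did not pass either (log2 fold change -0.87, SE 0.41). RAB36 rose by 0.39 (edgeR adjusted p = 0.0147), a call lost without si-CHAF1A 3 or si-Ctrl 1 (up to 0.0899). RAB28, linked to cilia and photoreceptors, was at 13.2, 15.7 and 14.5 CPM in si-CHAF1A, against 18.9, 16.4 and 19.3 CPM in si-Ctrl. It fell by 0.33 (edgeR adjusted p = 0.0263), a call lost without si-CHAF1A 1, si-CHAF1A 3, si-Ctrl 1 or si-Ctrl 3 (up to 0.120). RAB23, which restrains Hedgehog signalling, had a log2 fold change of -0.16 and did not pass; 57.7% of its exonic bases lie under BAG2 on the opposite strand.

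The called members were also counted by level. Split at the members' median level (5.06 on the log2 CPM scale, over all 6 libraries), the upper 26 members held 1 higher and 12 lower, with a median log2 fold change of -0.16. The lower 26 held 8 higher and 4 lower, with a median of -0.03. At the same boundary all tested genes divided into 1183 higher and 1747 lower of 5717 above it, and 1761 higher and 1317 lower of 10194 below it. The shares called were 50% of members and 51.3% of all genes above the boundary, and 46.2% of members and 30.2% of all genes below it. RAB30 was the one rise in the upper part. The counts in the lower part changed when 1 library was left out. They were 4 higher and 3 lower without si-Ctrl 1, and 5 higher and 1 lower without si-CHAF1A 1 or without si-CHAF1A 3. They were 6 higher and 3 lower without si-CHAF1A 2, and 6 higher and 2 lower without si-Ctrl 3. Without si-Ctrl 2 they were 9 higher and 4 lower. In the upper part, leaving out 1 library gave 1 higher and 9 to 14 lower. The relation of level and change was not tested.

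**Figure D3:**
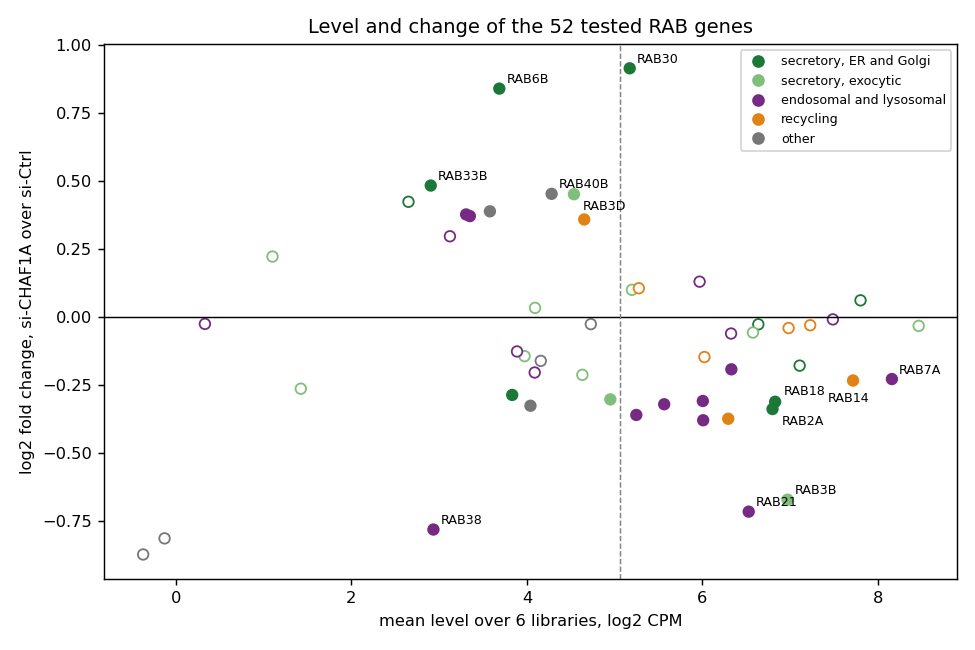
Mean log2 CPM over the 6 libraries against the log2 fold change of si-CHAF1A over si-Ctrl for the 52 tested RAB genes; filled points passed the test, and the dashed line is the members' median level of 5.06. Right of the line 12 genes fell and 1 rose, and left of it 8 rose and 4 fell (4 and 3 without si-Ctrl 1). Over all tested genes, 1747 fell and 1183 rose of 5717 above this level, and 1761 rose and 1317 fell of 10194 below it.

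Paralogues divide the level of a subfamily between them, and that division was read as the share of each tested paralogue in the summed CPM per kilobase. It was computed for the 11 subfamilies with at least 2 tested members. In 5 of them (RAB3, RAB6, RAB7, RAB9 and RAB11) the paralogue that led in si-Ctrl had a lower share in every si-CHAF1A library than in any si-Ctrl library. In RAB8, where both paralogues had nearly equal shares in si-Ctrl, the leading RAB8B had a higher one. Shares in other gene families were not computed. As single genes, 48.2% of all tested genes had groups that did not overlap in either direction, and 24.1% had si-CHAF1A below. Those values are for the CPM of 1 gene and are no direct measure for shares of paralogues. Which paralogue leads also depends on the exonic length used. In si-Ctrl, RAB11A had 151 CPM over 5682 bases, and RAB11B, which led per kilobase, 88.4 CPM over 2470 bases. Of the 11 subfamilies, RAB3 shifted most in percentage points (not in ratio, where RAB6B was ahead): RAB3D held 41.2%, 41.1% and 39.6% in si-CHAF1A, against 25.1%, 22.3% and 26.5% in si-Ctrl. RAB6B held 9.31 ± 0.44% in si-CHAF1A and 4.84 ± 0.45% in si-Ctrl (SD, n = 3 each). RAB9B held 31.4 ± 1.09% in si-CHAF1A and 24.6 ± 1.87% in si-Ctrl, and RAB7B 3.004 ± 0.15% in si-CHAF1A and 2.003 ± 0.13% in si-Ctrl. RAB11A held 48.6 ± 1.16% in si-CHAF1A and 42.8 ± 3.55% in si-Ctrl. In RAB1, RAB2, RAB5 and RAB27 the shares of every paralogue overlapped between the groups. In RAB40 the leading RAB40C overlapped, while RAB40B held 36.0 ± 3.68% in si-CHAF1A and 28.7 ± 3.09% in si-Ctrl, and RAB40A had a lower share in si-CHAF1A.

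**Figure D4:**
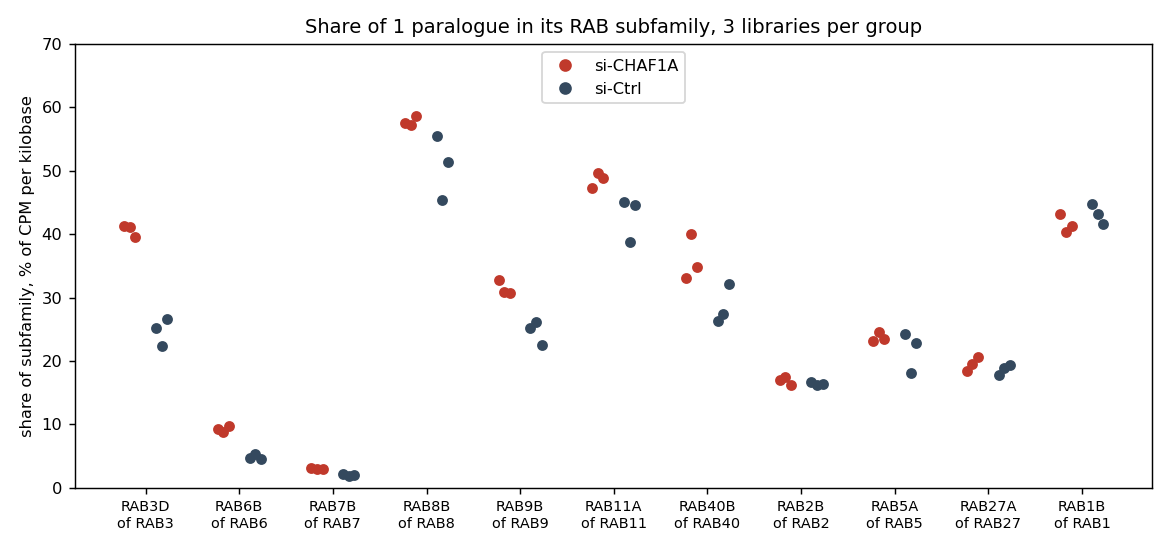
Share of 1 paralogue in the CPM per kilobase of its RAB subfamily, in percent, for 3 si-CHAF1A and 3 si-Ctrl libraries. RAB3D lies near 40.7% in si-CHAF1A and 24.7% in si-Ctrl on average, while the points of RAB2B, RAB5A, RAB27A and RAB1B overlap between the groups.

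Rabs depend on proteins that attach their lipid anchor, load and discharge their nucleotide, and read their active form. Of 164 such genes in 4 lists, 163 were found and 156 tested; 44 were higher and 22 lower, or 28.2% and 14.1%, beside 18.5% and 19.3% of all genes. The median log2 fold change over them was 0.08. Guanine nucleotide exchange factors, which activate Rabs, were higher in 15 and lower in 5 of 51, with a median of 0.15 (10 to 17 higher and 3 to 8 lower when 1 library was left out; 8 lower without si-Ctrl 2 and 3 without si-CHAF1A 3). DENND5A, which binds RAB6, stood at 155 ± 3.65 CPM in si-CHAF1A and 77.2 ± 3.55 CPM in si-Ctrl (log2 fold change 1.01, edgeR adjusted p = 1.36e-08). DENND3, an activator of RAB12, rose by 0.58 on the log2 scale. RAB3GAP1, which with its partner inactivates RAB3 and activates RAB18, rose by 0.46, DENND2B by 0.58 and the TRAPP complex subunit TRAPPC9 by 0.51.

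GTPase-activating proteins with a TBC domain, which switch Rabs off, were higher in 9 and lower in 5 of 36, with a median of 0.01 (8 or 9 higher and 3 to 7 lower when 1 library was left out; 3 lower without si-CHAF1A 1 or si-CHAF1A 3). TBC1D2B, TBC1D9, TBC1D9B and TBC1D10B rose by 0.63, 0.77, 0.57 and 0.72 on the log2 scale, and TBC1D2, which acts on RAB7, fell by 0.52. Effectors were higher in 18 and lower in 9 of 54 tested (33.3% and 16.7%), with a median of 0.08. The TBC list had 25% higher and 13.9% lower, and the prenylation list given below 13.3% and 20%. All genes had 18.5% and 19.3%. BICD2, a dynein adaptor that RAB6 recruits, stood at 119 ± 4.26 CPM in si-CHAF1A and 37.3 ± 3.35 CPM in si-Ctrl and rose by 1.67. The RAB8 effector OPTN fell by 0.70 and the RAB5 effector RABEP1 fell by 0.72. The motor MYO5A rose by 0.67, and the Golgi tether GOLGA2, bound by RAB1, rose by 0.50. Of 15 genes of Rab prenylation and membrane cycling, 2 were higher and 3 lower (1 to 3 and 1 to 4 when 1 library was left out; 1 higher without any one of the si-CHAF1A libraries or si-Ctrl 3, and 1 lower without si-CHAF1A 1 or si-CHAF1A 3). CHML, an escort protein that presents Rabs for prenylation, fell by 0.55, and the prenyltransferase subunit RABGGTB fell by 0.24. The Golgi membrane proteins YIPF3 and YIPF5 rose by 0.28 and 0.20.

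**Figure D5:**
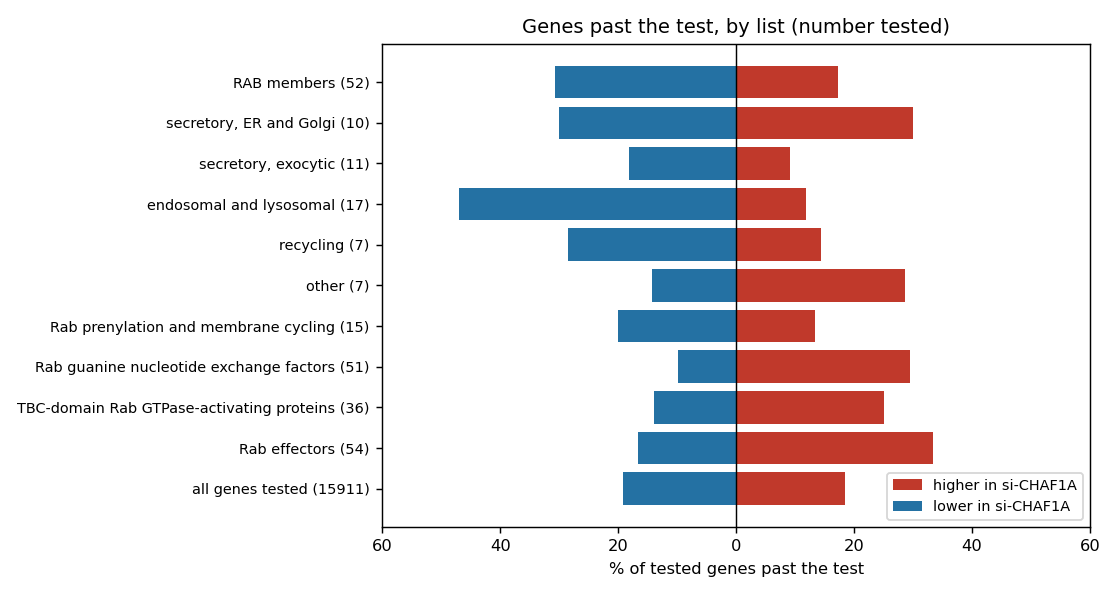
Percent of tested genes past the test, higher in si-CHAF1A to the right and lower to the left of 0, for the RAB genes, their compartments and the Rab pathway lists, with all genes tested at the bottom; the number tested is in brackets. RAB members have 30.8% lower and 17.3% higher, exchange factors 9.80% lower and 29.4% higher, and all genes 19.3% and 18.5%.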

How the data were processed

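RNA-seq read counts per gene were deposited by the authors as 1 table of whole-number counts for 6 libraries, without normalisation. The submitters' processing notes name fastp 0.20.1, HISAT2 2.1.0, SAMtools 1.9, featureCounts 2.0.1, StringTie 2.1.4 and hg38; their settings, the annotation release and whether counting used strand are, in those sources used here, not given. Without a known strand setting, reads of overlapping and antisense genes cannot be assigned with certainty: 17 members share at least 10% of their exonic bases with another gene. Reads were 150 bp long, and the design text describes strand-specific libraries. Columns named NC and si were read as si-Ctrl and si-CHAF1A of the same number; the level of CHAF1A bears on that reading. There were 0 columns of other samples.

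Symbols came from a gene name table (62665 of 63186 identifiers), positions and exonic lengths from GENCODE 29 (58173 found), and upstream sequences from RefSeq GRCh38.p14, which has 50 of the 63 members. Genes were kept by filterByExpr (minimum count 10, minimum total 15). The test was edgeR 4.0.16 in R 4.3.3 (TMM, robust quasi-likelihood, no covariate), with Benjamini-Hochberg adjustment over 15911 genes and a threshold of 0.05. SE is the absolute log2 fold change over the square root of F. The fit was tested on simulated data. Members and lists were chosen with earlier results of these data known. Values per library are given for members called with an absolute log2 fold change of at least 0.4, the highest member per kilobase of each compartment and their tested paralogues; of each pathway list the 5 genes with the smallest adjusted p are named, except 1 that is not reported here. RAB9B, RAB11A, RAB11B, RAB13 and RAB17, and counts of RAB25 and RAB34, were given after their values were seen. The design text speaks of biological replicates without saying how the 3 cultures of a group relate, so p-values measure the spread between these 6 libraries. No pair of libraries was a duplicate (chi-square per degree of freedom 2.30 to 13.7 within groups).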

Additional observations from a re-analysis of the deposited data

How the results depend on the processing

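Under 10 alternatives, no RAB gene that passed in one fit passed in the opposite direction in another, and CHAF1A stayed lower in all (log2 fold change -2.28 to -2.13 when 1 library was left out). The DESeq2 test (1.42.0) gave 5 higher and 13 lower members, and its size factors in edgeR gave 10 and 16. Over all genes the DESeq2 test gave 2378 higher and 2758 lower, where edgeR with all 6 libraries gave 2944 and 3064. With no filter on low counts, 7 were higher and 14 lower, RAB7B, RAB9B, RAB2B and RAB31 being lost. When 1 library was left out, 5 to 10 members were higher and 10 to 19 lower. DESeq2 lost RAB7B, RAB9B, RAB33B and RAB36 among the rises and RAB2B, RAB28 and RAB31 among the falls; the cause was not tested. By DESeq2, and with no filter, 0 endosomal and lysosomal members were higher. With the replicate number as a block, 9 were higher and 14 lower. The labels do not say whether equal numbers pair the samples. Deviations of same-numbered libraries from their group mean correlated at -0.0859, -0.0643 and -0.00313. With 3 libraries per group these values cannot decide it, and the block result is given here only. Counts in all genes and in the pathway lists together stayed within 1.5 times in every alternative. Counts of members did not: the higher count moved further by DESeq2 and without si-Ctrl 1, and the lower count without si-CHAF1A 1. The median of all genes lay between -0.01 and 0.01 on the log2 scale throughout. Depth limits the 11 untested members, which had at most 17 counts in a library.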

Other observations

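The pseudogene RAB1C, left out of the members, had 1, 0 and 0 counts in si-CHAF1A 1, 2 and 3 and 0, 5 and 0 counts in si-Ctrl 1, 2 and 3.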
